A study of Rattus norvegicus with 6 samples.

Results

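The 10 genes followed here belong to the Hippo pathway. They are 6 regulators (Ajuba, Lats1, Lats2, Yap1, Wwtr1 and Tead1) and 4 targets of YAP (Ccn1, Ccn2, Ankrd1 and Amotl2), matched by gene name in a table of 25689 genes measured in rat dorsal root ganglion (DRG) neurons, and all 10 were found. The set was chosen by the level of Ajuba, which was much lower in rats whose perirenal adipose tissue had been ablated surgically (PRATA), so the difference between the groups is given for these 10 genes as a description, without a p-value. All samples came from spontaneously hypertensive rats (SHRs) of wild type genotype, with an age of 6 to 8 weeks in the sample labels. The study's methods give an older age for the SHRs it purchased, so the age at sampling is uncertain. Of the rats, 3 underwent PRATA and 3 a sham operation, and L1-L2 DRGs were taken 4 weeks later. The ganglia were digested with enzymes and the cells were cultured in coated dishes for several hours before lysis, so levels are those after culture. Neurons were parted from glial cells only by how slowly they stick to a dish, so the samples can hold other cells. In such bulk samples, fewer cells of a type and less RNA per cell cannot be told apart.

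The Hippo pathway is a kinase cascade that restrains growth. Its upstream kinases activate LATS1 and LATS2, which phosphorylate the coactivators YAP (Yap1) and TAZ (Wwtr1) and keep them out of the nucleus, whereas unphosphorylated YAP and TAZ bind TEAD factors such as Tead1 and switch on genes for secreted matrix proteins, cytoskeletal regulators and feedback inhibitors. AJUBA, a LIM domain adaptor, binds LATS kinases and is known to hold them inactive, and in peripheral nerve YAP and TAZ are known for their part in Schwann cell growth and myelination.

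TEAD factors recognize the letters GGAATG, which read CATTCC on the opposite strand of the DNA. The 250 bases before the annotated transcription start were searched on both strands in RefSeq promoters of the rat build GRCr8, where 7 of the 10 genes had an entry. GGAATG stood in 5 of these 7 windows, beside 12.1% of all 33469 windows of the same length. The longer form GGAATGT, which contains GGAATG, stood in the same 5 windows, beside 3.52% of all windows. The 5 windows are printed because they belong to 3 targets and to the 2 regulators that hold the motif, 5′ to 3′ on the strand of the gene, with GGAATG or CATTCC in capitals.
Ccn2, chr1:22624615-22624864, minus strand: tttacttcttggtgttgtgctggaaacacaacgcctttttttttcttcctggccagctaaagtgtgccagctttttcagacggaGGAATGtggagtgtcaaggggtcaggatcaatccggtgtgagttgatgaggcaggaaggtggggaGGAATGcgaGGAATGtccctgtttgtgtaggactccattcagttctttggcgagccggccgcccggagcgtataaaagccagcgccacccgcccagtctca
Ccn1, chr2:237225690-237225939, minus strand: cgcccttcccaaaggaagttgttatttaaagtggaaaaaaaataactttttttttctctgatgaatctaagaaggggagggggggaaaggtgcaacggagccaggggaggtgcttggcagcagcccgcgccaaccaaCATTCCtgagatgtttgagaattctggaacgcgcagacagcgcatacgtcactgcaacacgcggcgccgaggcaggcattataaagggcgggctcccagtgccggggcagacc
Amotl2, chr8:112182376-112182625, plus strand: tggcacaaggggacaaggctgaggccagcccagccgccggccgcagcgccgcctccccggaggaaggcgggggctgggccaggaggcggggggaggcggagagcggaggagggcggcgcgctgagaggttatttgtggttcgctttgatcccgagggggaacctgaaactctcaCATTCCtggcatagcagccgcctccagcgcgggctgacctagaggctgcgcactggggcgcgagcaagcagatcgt
Ajuba, chr15:32000043-32000292, minus strand: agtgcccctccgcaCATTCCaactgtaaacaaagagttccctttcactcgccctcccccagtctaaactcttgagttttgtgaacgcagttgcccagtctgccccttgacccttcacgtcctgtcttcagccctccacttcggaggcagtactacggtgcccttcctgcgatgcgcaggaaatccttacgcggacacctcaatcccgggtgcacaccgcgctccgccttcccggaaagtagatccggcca
Yap1, chr8:13451438-13451687, minus strand: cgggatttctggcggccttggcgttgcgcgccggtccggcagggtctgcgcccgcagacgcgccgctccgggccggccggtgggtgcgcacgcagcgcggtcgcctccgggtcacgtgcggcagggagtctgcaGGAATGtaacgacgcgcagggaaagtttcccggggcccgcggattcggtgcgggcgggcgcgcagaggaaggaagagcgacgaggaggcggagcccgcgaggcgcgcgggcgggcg
The Ccn2 window held 3 copies, which begin 166, 101 and 92 bases before the start, and 3 or more copies were found in 0.0807% of all windows. The single copies began 113 bases before the start of Ccn1, 76 before that of Amotl2, 236 before that of Ajuba and 116 before that of Yap1. The windows of Lats1 and Wwtr1 held none. The letters TGANTCA, the core of the AP-1 motif, were in 0 of the 7 windows and in 6.34% of all windows. These matches are letters in a window, and binding was not measured.

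**Figure D1:**
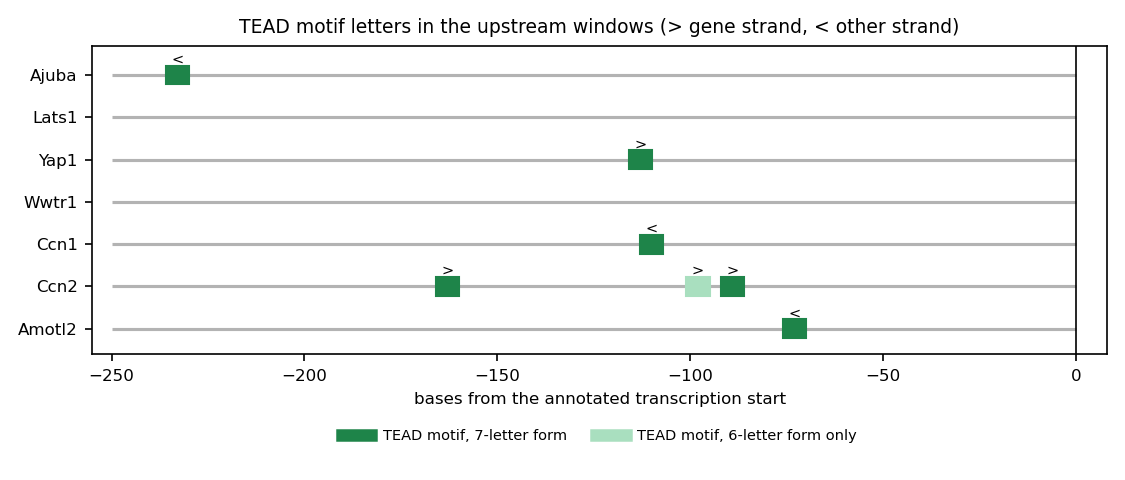
Positions of GGAATG on either strand in the 250 bases before the annotated start of 7 genes, in bases from the start. Dark boxes extend to GGAATGT, the pale box does not, and the Ccn2 window is the one with 3 boxes.

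Total counts ranged from 5892967 in sham replicate 2 to 15226952 in sham replicate 1. The 7SL RNA gene Rn7sl1 took 5.40% of the counts in PRATA replicate 3 and 5.63% in sham replicate 1, but 1.25% to 1.52% in the other 4 samples, a split with 1 sample of each group on one side. Pseudogenes took 0.751% of the counts in sham replicate 2 and 0.389% to 0.483% in the other samples. Levels below are counts scaled by TMM to a common library size (CPM), a depth-scaled level that is not corrected for gene length. They are compared within a gene, except where marker levels are summed or used as a scale. Those sums are not corrected for gene length either. Log2 fold changes (PRATA against sham) and standard errors came from edgeR's quasi-likelihood fit of 14919 genes. An adjusted p under 0.05 was reached by 0 of these genes in edgeR, beside 2734 at an unadjusted p under 0.05, so the calls below, made only for genes outside the 10, use the unadjusted p. In other tests of the same counts, DESeq2 placed 728 genes under an adjusted p of 0.05, limma voom with quality weights 1173 and limma-trend 0.

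Ajuba (ENSRNOG00000012791), the LATS-binding adaptor whose window is printed above, was lower in every PRATA sample than in any sham sample. It stood at 3.49, 4.22 and 3.24 CPM in PRATA replicates 1, 2 and 3 (27, 53 and 41 counts). In sham replicates 1, 2 and 3 it was 10.5, 12.3 and 17.4 CPM (152, 79 and 184 counts). The PRATA samples lay close together and the highest of them was well under the lowest sham sample. The means were 3.65 ± 0.511 CPM (SD, n = 3) with PRATA against 13.4 ± 3.56 CPM (SD, n = 3) in the sham group. The log2 fold change was -1.87 (standard error 0.28), or a 3.66-fold lower level. These values chose the set. In the 4 samples without the 2 of high Rn7sl1 share the log2 fold change was -1.95, and without sham replicate 2 it was -1.92.

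Lats1 and Lats2 encode the kinases that AJUBA binds and that phosphorylate YAP and TAZ. Lats1 (ENSRNOG00000014916) was at 66.5, 81.3 and 76.0 CPM in PRATA replicates 1, 2 and 3 and at 133.8, 65.2 and 106.7 CPM in sham replicates 1, 2 and 3. Sham replicate 2 was the lowest of all 6 samples, so the groups overlapped, and the log2 fold change was -0.45 (standard error 0.26). Lats2 (ENSRNOG00000056343), which is itself a YAP target, was at 102.1, 135.8 and 110.0 CPM after PRATA and at 213.1, 131.3 and 196.2 CPM in the sham group. Here sham replicate 2 lay just under PRATA replicate 2 while sham replicates 1 and 3 were above every PRATA sample, and the log2 fold change was -0.64 (standard error 0.22).

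Yap1 and Wwtr1 encode the coactivators YAP and TAZ on which the pathway acts. Yap1 (ENSRNOG00000005933) was at 41.0, 54.6 and 38.0 CPM after PRATA and at 71.3, 43.9 and 61.6 CPM in the sham group, a log2 fold change of -0.40 (standard error 0.23). PRATA replicate 2 exceeded sham replicate 2, and the groups overlapped. Wwtr1 (ENSRNOG00000016617) was at 27.6, 54.6 and 30.1 CPM after PRATA and at 82.4, 35.0 and 47.7 CPM in the sham group, a log2 fold change of -0.56 (standard error 0.37). PRATA replicate 2 exceeded sham replicates 2 and 3, and in the 4 samples without the 2 of high Rn7sl1 share the log2 fold changes of Wwtr1 and Yap1 were -0.01 and -0.15.

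Tead1 (ENSRNOG00000015488) encodes a DNA-binding partner of YAP and TAZ. It stood at 53.8, 61.7 and 48.2 CPM in PRATA replicates 1, 2 and 3 and 157.8, 76.5 and 185.5 CPM in sham replicates 1, 2 and 3. The groups did not overlap, although sham replicate 2 was far closer to the PRATA samples than to the other sham samples. The means were 54.6 ± 6.78 CPM (SD, n = 3) with PRATA against 139.9 ± 56.7 CPM (SD, n = 3) in the sham group. The log2 fold change was -1.36 (standard error 0.31). Without sham replicate 2 it was -1.65 and without sham replicate 3 it was -1.10.

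The log2 fold changes of the 4 targets ran from -1.89 to 3.12. Ccn2 (ENSRNOG00000015036) encodes CTGF, a secreted matrix protein that is widely used as a readout of YAP and that also responds to TGF-beta, and its window holds the 3 TEAD motifs printed above. It stood at 93.1, 81.6 and 228.3 CPM in PRATA replicates 1, 2 and 3 and 530.8, 325.7 and 632.4 CPM in sham replicates 1, 2 and 3. PRATA replicate 3 was far above the other PRATA samples, and the groups did not overlap. The log2 fold change was -1.89 (standard error 0.44), or a 3.69-fold lower level, and it was -2.51 without PRATA replicate 3. Ccn1 (ENSRNOG00000014350) encodes CYR61, the closest relative of CTGF, with 1 TEAD motif in its window. It was at 472.2, 505.7 and 212.3 CPM after PRATA and at 674.1, 207.9 and 540.4 CPM in the sham group. PRATA replicate 3 and sham replicate 2 were both low and the groups overlapped widely, with a log2 fold change of -0.26 (standard error 0.47) that turned to 0.37 in the 4 samples without the 2 of high Rn7sl1 share, to 0.043 without PRATA replicate 3 and to 0.065 without sham replicate 1.

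Amotl2 (ENSRNOG00000008487) encodes an angiomotin family protein that binds YAP and holds it back, a feedback inhibitor. It was at 103.1, 125.9 and 98.5 CPM after PRATA and at 196.4, 89.9 and 188.7 CPM in the sham group. Sham replicate 2 was the lowest of the 6 samples and the groups overlapped, with a log2 fold change of -0.54 (standard error 0.29). Ankrd1 (ENSRNOG00000018598), which encodes an ankyrin repeat protein of muscle and of stressed cells, went the other way. It had 14, 124 and 7 counts in PRATA replicates 1, 2 and 3 and 3, 7 and 3 counts in sham replicates 1, 2 and 3, or 1.81, 9.88 and 0.554 CPM after PRATA and 0.207, 1.09 and 0.283 CPM in the sham group. PRATA replicate 3 lay inside the sham range, and PRATA replicate 2 held most of the counts. The log2 fold change was 3.12 (standard error 1.13) and was 1.24 without PRATA replicate 2. Sham replicates 1 and 3 stood at 3 counts, the number taken as the floor of detection for counting error.

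**Figure D2:**
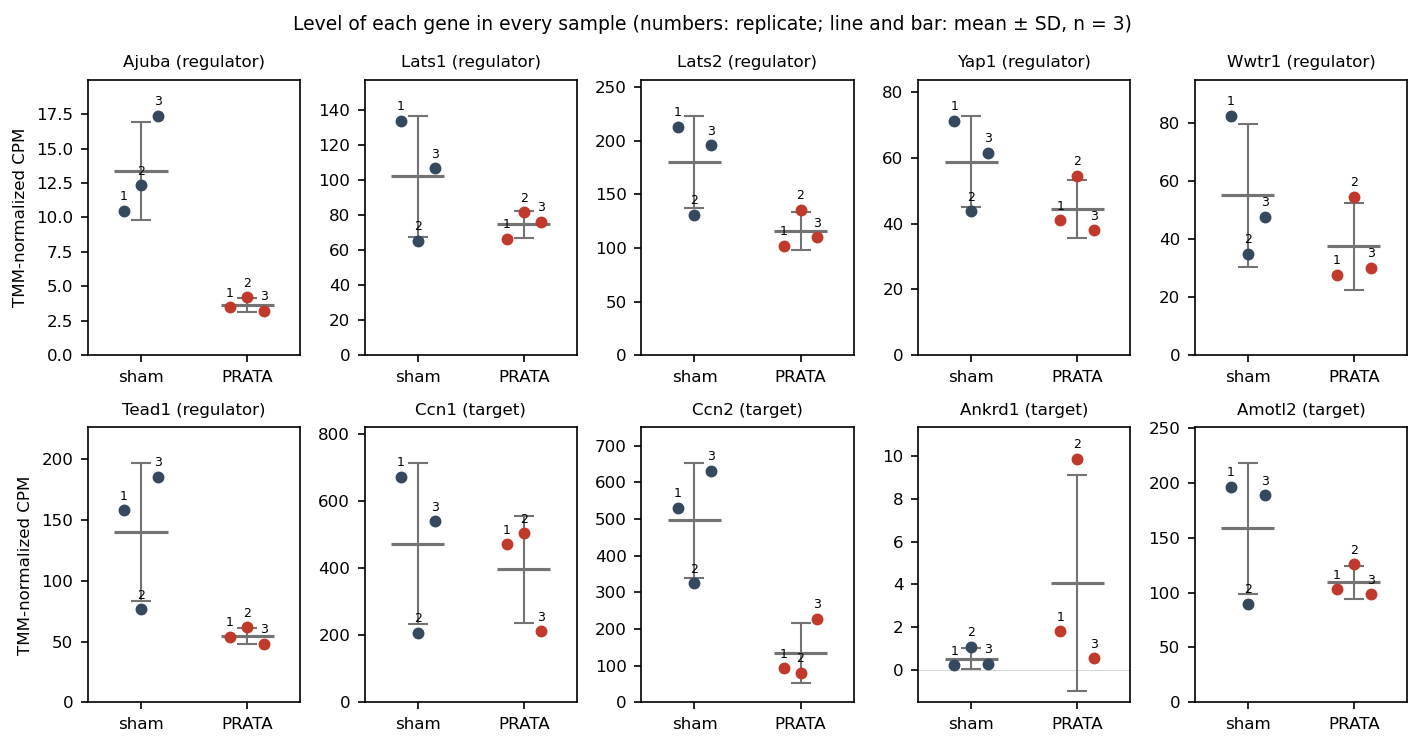
TMM-normalized CPM of the 10 genes in every sample, with the replicate number beside each point and the mean ± SD (n = 3) in grey; each panel has its own axis. Ajuba, Tead1 and Ccn2 are the genes whose PRATA points all lie under the sham points, and sham replicate 2 is the lowest sham point for every gene except Ajuba and Ankrd1.

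All 6 regulators had a log2 fold change under 0, as did 3 of the 4 targets, beside 48% of all genes tested. All PRATA samples lay below all sham samples for 3 of the 10 genes (Ajuba, Tead1 and Ccn2), beside 11.2% of all genes tested. Since this contrast chose the set, nothing is read from these shares. The median log2 fold change of the 10 genes was -0.55, and that of all genes tested was 0.02.

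**Figure D3:**
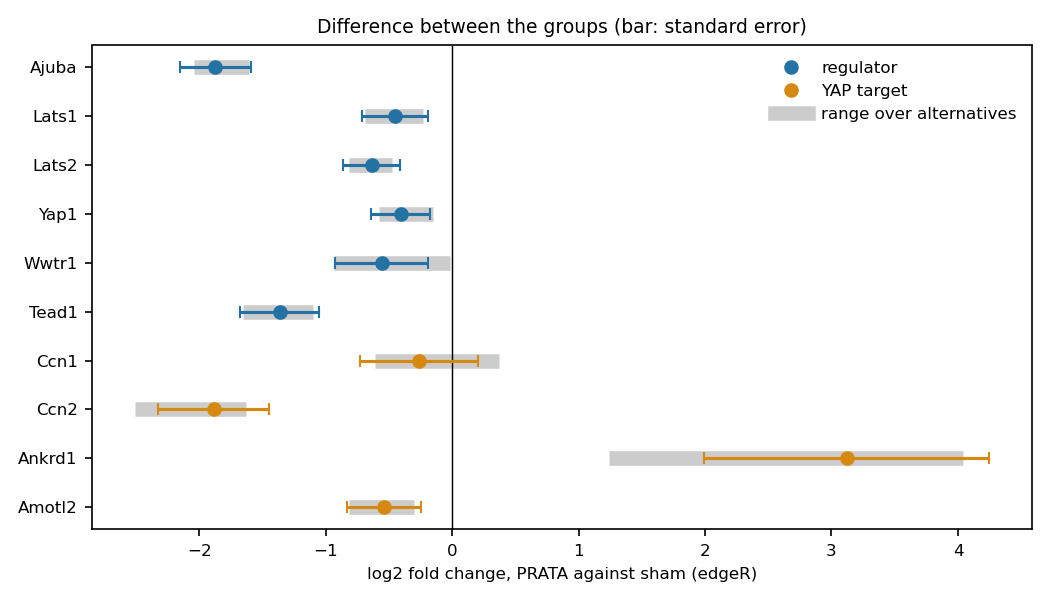
Log2 fold change of PRATA against sham for the 10 genes from edgeR, with its standard error, over a grey band that spans the values under other processing choices. Ajuba, Tead1 and Ccn2 stay below -1 over their whole bands, the band of Ccn1 crosses 0 and that of Ankrd1 stays above 1.

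The rest of the pathway was taken from 6 lists written from general knowledge with earlier results of these data known, which hold 59 genes besides the 10, and 54 of these were tested. Of the 54 genes, 18 (33.3%) were lower after PRATA at an unadjusted p under 0.05 and 1 (1.85%) was higher, beside 10.1% and 8.19% of all genes tested. None of the 54 had an adjusted p under 0.05 in edgeR. Their median log2 fold change was -0.36, and 41 of them were under 0. Without sham replicate 2, 25 of 55 genes were lower and 2 higher, where 14.1% and 13.4% of all genes were. In the 4 samples without the 2 of high Rn7sl1 share, 12 of 55 genes were lower and 0 higher, where 6.9% and 5.98% of all genes were. Leaving out PRATA replicate 1, sham replicate 1 or sham replicate 3 left 11 genes lower in each case, where 5.44%, 8.91% and 5.57% of all genes were.

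Among the 4 tested relatives of Ajuba, Limd1 and Lpp were lower at an unadjusted p under 0.05, as were 10.1% of all genes tested. Trip6 and Zyx were not lower at that p. Limd1, the adaptor most like AJUBA, which also binds LATS, was at 19.4, 30.8 and 21.7 CPM after PRATA and at 56.7, 33.6 and 59.5 CPM in the sham group. Its groups did not overlap, and the log2 fold change was -1.06 (standard error 0.28, edgeR adjusted p = 0.168). Lpp, a zyxin family protein of focal adhesions, had a log2 fold change of -1.13 (standard error 0.34, edgeR adjusted p = 0.180), with sham replicate 2 at 30.3 CPM inside the PRATA range of 18.8 to 31.9 CPM. The log2 fold change was -0.65 for Trip6 and -0.11 for Zyx.

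Of the 11 further genes of the kinase core, 3 (27.3%) were lower and 1 (9.09%) was higher at an unadjusted p under 0.05. Of all genes tested, 10.1% were lower and 8.19% higher. The scaffold Sav1, which joins the upstream kinases to LATS, was at 19.0, 22.1 and 23.0 CPM after PRATA and at 31.5, 31.1 and 38.0 CPM in the sham group. Its groups did not overlap, with a log2 fold change of -0.65 (standard error 0.17, edgeR adjusted p = 0.168). Mob1a and Mob1b, the coactivators of the LATS kinases, had log2 fold changes of -0.87 and -0.73. The single higher gene was Stk38l, a kinase of the same family as LATS, at 33.3, 34.6 and 31.9 CPM after PRATA and at 24.9, 21.4 and 26.6 CPM in the sham group (log2 fold change 0.45, standard error 0.16, edgeR adjusted p = 0.222). The log2 fold change of Stk38l ran from 0.37 to 0.53 over 14 alternatives, but its call was lost in 9 of them, among them DESeq2, the replicate block and the fits without any 1 of 5 samples. The upstream kinases Stk3 and Stk4 had log2 fold changes of -0.41 and -0.29 and did not pass.

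Of the 13 upstream regulators, 5 (38.5%) were lower at an unadjusted p under 0.05 and 0 were higher, beside 10.1% and 8.19% of all genes tested. The 5 were Wwc1, Wwc2, Nf2, Amotl1 and Fat1. Wwc1, which encodes the scaffold KIBRA, was at 2.19, 1.67 and 1.34 CPM after PRATA and at 3.18, 5.15 and 4.72 CPM in the sham group, without overlap (log2 fold change -1.32, standard error 0.38, edgeR adjusted p = 0.175). Nf2, the tumour suppressor merlin, had a log2 fold change of -0.55 and the angiomotin family gene Amotl1 one of -0.68, both with overlapping groups. Of the 7 genes of the STRIPAK phosphatase complex, which opposes the upstream kinases, 1 (14.3%) was lower, close to the 10.1% of all genes. It was Strn3 (log2 fold change -0.61, standard error 0.20, edgeR adjusted p = 0.191), and the median of the list was -0.01.

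The cofactor Vgll3, which binds TEAD factors in place of YAP, had the smallest p of the coactivator list outside the 10 genes. It was at 90.9, 118.6 and 97.7 CPM after PRATA and at 320.9, 152.5 and 357.0 CPM in the sham group. Its groups did not overlap, with sham replicate 2 the lowest sham sample as for Tead1, and the log2 fold change was -1.44 (standard error 0.32, edgeR adjusted p = 0.156). Vgll4 had a log2 fold change of -0.57 and the TEAD factor genes Tead3 and Tead4 had ones of -0.37 and -0.18, none of them past the test. Tead2 was too low to be tested.

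A list of 22 YAP targets holds 17 genes besides Ccn1, Ccn2, Ankrd1, Amotl2 and Lats2, and 16 of these were tested. At an unadjusted p under 0.05, 6 of the 16 (37.5%) were lower and 0 were higher, beside 10.1% and 8.19% of all genes tested, with a median log2 fold change of -0.34. The receptor tyrosine kinase gene Axl was at 103.0, 154.4 and 129.3 CPM after PRATA and at 485.8, 213.5 and 465.6 CPM in the sham group. Its groups did not overlap, and the log2 fold change was -1.59 (standard error 0.33, edgeR adjusted p = 0.156). Fjx1, a regulator in the FAT cadherin branch of the pathway, had a log2 fold change of -1.44 (standard error 0.34), and F3, tissue factor of blood clotting, one of -1.15 (standard error 0.26), both without overlap and with an edgeR adjusted p of 0.156. Myof, Tgfb2 and Igfbp3 were the remaining genes called lower. Other listed targets were close to 0, with log2 fold changes of -0.11 for Crim1, 0.10 for Dock5, 0.00 for Nt5e and 0.16 for Rbms3. RefSeq promoters were at hand for 14 of the 22 targets. GGAATG stood in 5 of the 14 windows (35.7%), beside 12.1% of all windows. These were the windows of Ccn1, Ccn2 and Amotl2, already counted above, and of Nuak2 and Ptpn14, which were not called. The windows of Axl, Fjx1, Myof, Tgfb2 and Igfbp3, all called lower, held none.

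**Figure D4:**
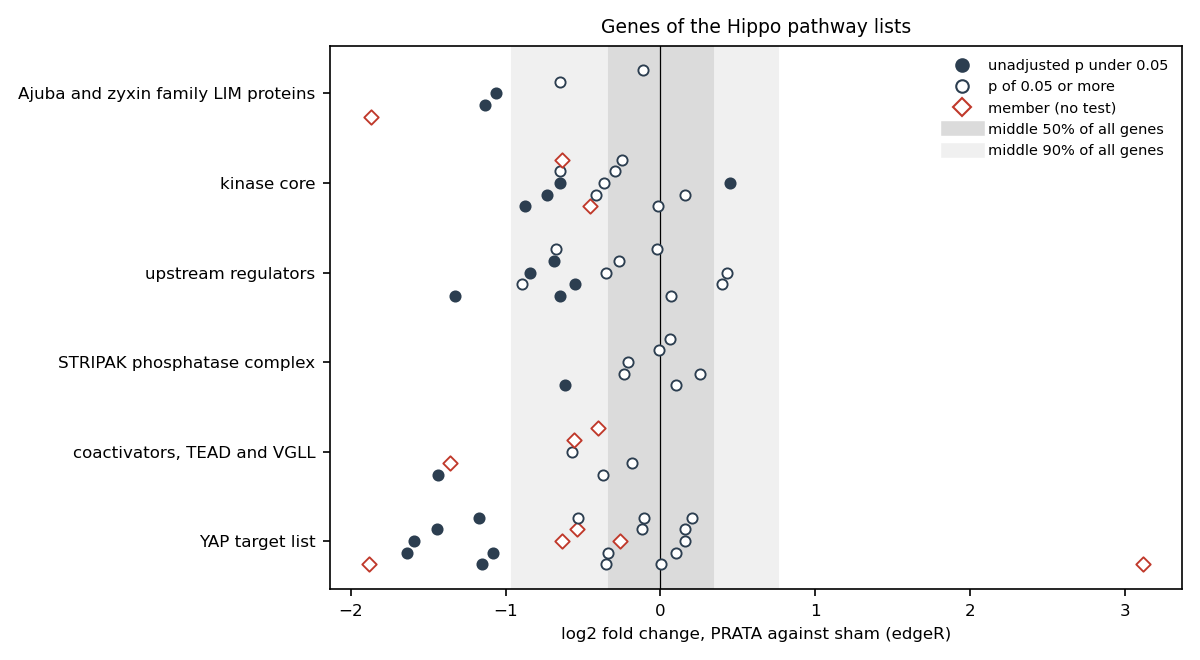
Log2 fold change of every tested gene in the 6 pathway lists, with filled circles for an unadjusted p under 0.05 in edgeR, open diamonds for the 10 genes, which carry no test, and grey bands for the middle 50% and 90% of all genes tested. The filled circles lie left of 0 except Stk38l, and Ankrd1 is the lone diamond on the right.

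Within the CCN family of secreted matrix proteins, Ccn2 had the lowest log2 fold change of the 5 genes tested. Ccn4 had a log2 fold change of -0.95 (standard error 0.45, edgeR adjusted p = 0.308) at 1.82 to 3.74 CPM after PRATA and 2.81 to 6.90 CPM in the sham group. Ccn3 and Ccn5 had log2 fold changes of -0.17 and -0.16 with standard errors of 0.50 and 0.73, and Ccn6 was too low to be tested. The differences between these genes were not tested.

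The genes whose profile over the 6 samples lay nearest to that of Ajuba, by the root mean square difference of log2 CPM centred on each gene's mean, were Tgfa, Gstcd, Itgb8, Gsta1 and Pmepa1, at 0.149, 0.170, 0.219, 0.234 and 0.235. The median over all genes was 1.02. Tgfa, which encodes an EGF receptor ligand, was at 10.3, 14.7 and 12.7 CPM after PRATA and at 35.6, 41.0 and 48.7 CPM in the sham group. Itgb8, an integrin subunit, was at 153.7, 215.4 and 158.5 CPM after PRATA and at 496.0, 392.4 and 839.3 CPM in the sham group. Gsta1, a glutathione transferase, has close paralogs whose reads could have been split. Of the other 9 genes of the set, Tead1 was nearest to Ajuba at 0.457, Ccn2 followed at 0.624 and Ankrd1 was farthest at 2.22. These are likenesses of 6 values that include the difference between the groups, so they carry no test.

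Markers of several cell types were present and some moved with the groups. All 12 sensory neuron markers had a log2 fold change above 0, and Elavl3, Pou4f1, Prph and Tubb3 were higher at an unadjusted p under 0.05. Of all genes tested, 48% had a log2 fold change under 0, and at that p 10.1% were lower and 8.19% higher. The summed level of the neuron markers was 10201 to 14824 CPM after PRATA and 6683 to 10237 CPM in the sham group. PRATA replicate 2 had the lowest PRATA sum and sham replicate 2 the highest sham sum. All 6 satellite glial markers had a log2 fold change under 0 and 0 were called, with summed levels of 3175 to 6081 CPM after PRATA and 4225 to 8284 CPM in the sham group. Here PRATA replicate 2 had the highest PRATA sum and sham replicate 2 the lowest sham sum. Of 8 Schwann cell markers, Sox10 was lower (log2 fold change -1.63) and Ncmap and Prx higher (2.44 and 1.39). The sums were 891.5 to 1533 CPM after PRATA and 889.7 to 1054 CPM in the sham group. Of the 6 fibroblast markers tested, 5 were under 0 and Mgp was called lower, with sums of 353.0 to 2031 CPM after PRATA and 1043 to 1931 CPM in the sham group. Mural, endothelial and macrophage markers were called in neither direction, with sums between 18.1 and 236.8 CPM over the 6 samples. No marker was at 0 in all samples.

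Set against these sums, Ajuba per 1000 CPM of satellite glial markers was 0.930, 0.694 and 1.02 CPM in PRATA replicates 1, 2 and 3 and 1.44, 2.92 and 2.10 CPM in sham replicates 1, 2 and 3. The groups remained apart on this scale, with a log2 difference of -1.25 in place of -1.87. This sum was mostly Apoe, at a mean of 3776 of 4334 CPM after PRATA and 5821 of 6597 CPM in the sham group. Ratios to satellite glial markers therefore largely follow Apoe, and scaling to other glial markers was not tested. Per 1000 CPM of fibroblast markers, Ajuba was 9.87, 5.48 and 1.60 CPM after PRATA and 5.44, 11.5 and 16.7 CPM in the sham group, and the groups overlapped (log2 difference -1.20). In this sum Col1a1 and Col3a1 had means of 401.5 and 377.2 of 1052 CPM after PRATA. Their sham means were 555.8 and 350.1 of 1349 CPM. Ratios to fibroblast markers therefore largely follow these collagen genes. Ccn2 per 1000 CPM of satellite glial markers was 24.8, 13.4 and 71.9 CPM after PRATA and 72.9, 77.1 and 76.3 CPM in the sham group, where PRATA replicate 3 came close to the lowest sham sample. Per 1000 CPM of fibroblast markers, Ccn2 was 263.6, 105.8 and 112.4 CPM after PRATA and 274.9, 303.6 and 606.0 CPM in the sham group. The groups stayed apart there (log2 difference -1.34), with PRATA replicate 1 close to sham replicate 1. For Tead1 the groups remained apart per satellite glial markers (log2 difference -0.66) and overlapped per fibroblast markers (log2 difference -0.61). Beyond these ratios, the part of cell makeup in the differences was not tested.

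**Figure D5:**
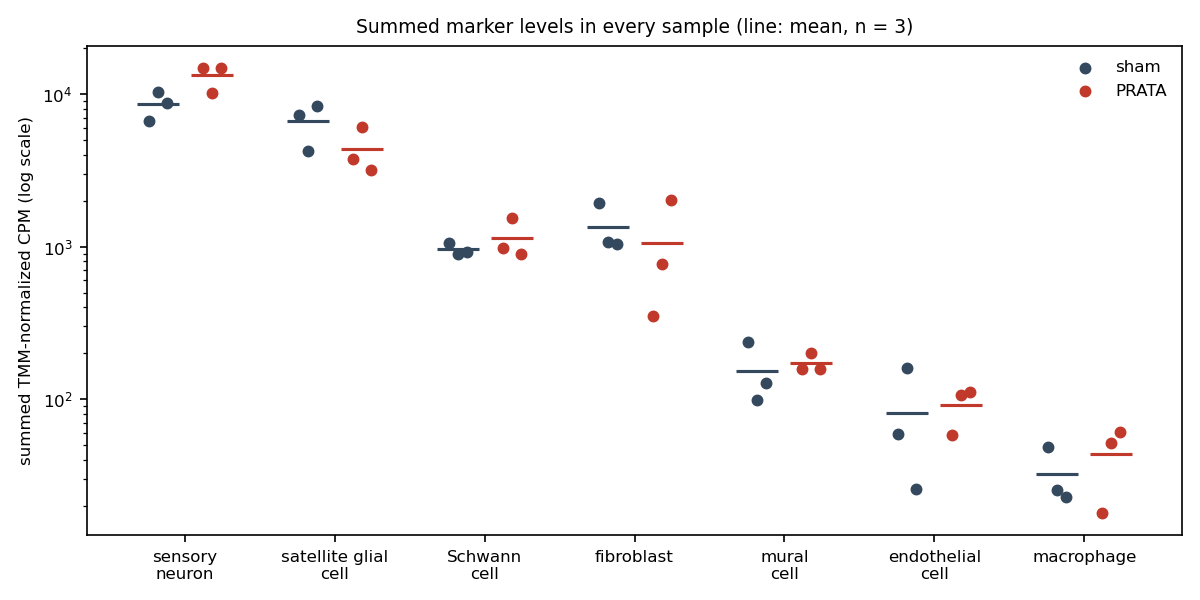
Summed TMM-normalized CPM of 7 marker lists in every sample on a log scale, with a line at the mean of 3 samples. Sensory neuron sums lie mostly higher and satellite glial sums mostly lower after PRATA, and fibroblast sums after PRATA run from 353.0 to 2031 CPM.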

How the data were processed

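The authors deposited raw counts of reads per gene, 1 column per sample, with Ensembl identifiers, names and gene types. The submitters' processing notes name STAR 2.7.3a, RSEM and DESeq2 without a role, while the study's methods name HISAT2, StringTie and Cuffdiff. The counter, its strand setting, the genome build and the annotation are not given in the sources used here. Every sample column was used. Libraries were stranded and depleted of ribosomal RNA.

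Genes were kept by filterByExpr (minimum count 10, minimum total 15), scaled by TMM, and PRATA was compared with sham without a covariate by the two-sided quasi-likelihood test of edgeR 4.0.16 (R 4.3.3), with Benjamini-Hochberg adjustment. limma 3.58.1 and DESeq2 1.42.0 gave alternatives, and figures were drawn with matplotlib 3.10.9. The fit was also run on counts simulated for each gene independently. Such counts hold no variation shared between genes, as from cell makeup, so that run cannot vouch for the calls made here. The 10 genes and all lists were chosen with earlier results of these data known. Genes named beyond the 10 are up to 3 per pathway list with the smallest p and the 5 nearest to Ajuba, clone and LOC names left out; others named from a list (Zyx, Mob1a, Stk3, Stk4, Wwc2, Fat1, Tead2, Tead4, Myof, Tgfb2, Igfbp3, Crim1, Dock5, Nt5e, Rbms3, Ccn6) were chosen after their values were seen. Names missing from the table (Wtip, Vgll1, Foxf2, Col1a2, Pecam1) are not analysed here. Marker-relative values were added after seeing the data. Floors cover counting error only. With 3 samples against 3, an exact permutation test cannot give a p under 0.1.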

Additional observations from a re-analysis of the deposited data

How the results depend on the processing

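Over 14 alternatives the log2 fold change of Ajuba stayed between -2.04 (without sham replicate 1) and -1.61 (limma-trend with a pseudocount of 1). Relative to summed markers, values added after seeing the data, it was -2.49 for sensory neuron, -2.06 for Schwann cell, -1.25 for satellite glial and -1.20 for fibroblast markers. Mean levels of Nefm, Prph, Nefh and Tubb3 were 3862, 2779, 2494 and 1721 of the 13239 CPM neuron sum after PRATA. In the sham group they were 2570, 1651, 1539 and 982.2 of 8540 CPM. Ratios to neuron markers therefore largely follow these genes. The log2 fold changes of Lats1, Lats2, Yap1, Wwtr1, Tead1, Ccn2 and Amotl2 kept their sign under the 14 alternatives, within the spread between replicates. Ccn1 turned to 0.37 in the 4 samples of the larger Rn7sl1 group and ran from -0.61 to 0.065 with single samples left out, where it changed sign without PRATA replicate 3 and without sham replicate 1. Ankrd1 ran from 1.24 to 4.04 over 13 alternatives and dropped out where 10 counts were required in every sample. Of all genes, 2282 were lower and 2324 higher with limma voom with quality weights and 907 and 621 with the replicate block, and with single samples left out 858 to 2181 were lower and 548 to 2073 higher. Of the pathway genes besides the 10, 18 of 54 were lower and 1 higher, and with single samples left out 11 to 25 were lower, where 5.44% to 14.1% of all genes were, and 0 to 2 higher, where 3.47% to 13.4% of all genes were. The higher count was 3 with voom (15.6% of all genes), and 0 without a filter, in DESeq2, with the replicate block and in the 4 samples. At an adjusted p under 0.05, 8 of 51 (15.7%) were called by DESeq2, 11 of 54 (20.4%) by voom and 12 of 55 (21.8%) by edgeR without sham replicate 2, where 6.23%, 7.86% and 4.67% of all genes (728, 1173 and 721) were, against 0 in edgeR with all samples. The same 5 genes were nearest to Ajuba with DESeq2 size factors. The replicate block left 12 of the 54 pathway genes lower, where 6.08% of all genes were, and gave Ajuba -1.85. The sample labels link same-numbered samples by number alone and do not mention pairing. After each gene's group mean was taken off, same-numbered samples had r of -0.35, -0.05 and -0.35 for replicates 1, 2 and 3. Differently numbered samples were not compared in this way, so these values cannot decide whether the samples were paired. Depth limits genes of few counts such as Ankrd1 and Wwc1. The causes of these shifts were not tested.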
